A study of Mus musculus with 6 samples.

Results

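Germ granule, piRNA and meiotic chromosome genes were examined in mouse ovary. The 36 members were chosen by name from the count table of 35415 genes, and all 36 symbols were in it. They comprised 17 genes of germ granules and the piRNA pathway, 17 genes of meiotic chromosomes (6 of the synaptonemal complex, 3 of meiotic cohesin, 2 HORMA domain genes and 6 of recombination) and 2 genes of the meiotic cell cycle, Mos and Ccnb3. The libraries were bulk RNA-seq of whole ovaries from mice aged 3 months and in estrus, from 3 wild-type and 3 Rnf111+/- animals. Each library carries the name of its own mouse in the labels, and the labels give no strain and no batch. The Rnf111+/- mice are heterozygous for a CRISPR-Cas9 edit of Rnf111, which encodes the ubiquitin ligase Arkadia, in work that asks how such a loss relates to premature ovarian insufficiency. The labels do not say which edited line was sequenced, nor the position of the edit.

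Germ granules are clusters of RNA and protein beside the nucleus or mitochondria of germ cells. They house the piRNA pathway, in which PIWI proteins, loaded with small RNAs and held together by Tudor domain scaffolds, silence transposable elements. In mice, loss of most of these factors makes males sterile while females stay fertile. In meiotic prophase, chromosomes pair along the synaptonemal complex and exchange DNA by recombination, steps that take place in the fetal ovary. The oocytes of an adult have long passed these steps and rest in arrest, still in prophase, until ovulation.

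The 6 libraries held 38261449 to 39474515 counts, so 3 counts, taken as the detection floor, were worth 0.0760 to 0.0784 CPM (the count scaled to a common library size). Rnf111 itself was lower in all 3 heterozygous libraries and fell by 0.27 on the log2 scale (SE 0.07, adjusted p = 0.04 by edgeR's quasi-likelihood test). One library stood apart. In wild-type replicate 3, all 8 genes of a list of oviduct epithelium markers (ciliated cell genes and the secretory gene Ovgp1) were at their highest, and their summed level was 193 CPM against 8.16 to 17.0 CPM in the other 5 libraries. None of the 8 was at 0 in any library except Dynlrb2 in heterozygous replicate 3. Granulosa cell markers summed to 2405 CPM in wild-type replicate 3 and to 4769 to 7135 CPM elsewhere, and macrophage markers to 306 CPM there and 161 to 231 CPM elsewhere. The part of these differences in the results was not tested, and values with and without that library are given where they differ.

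Detection came first. Of the 36 genes, 29 reached 3 counts in every library, 4 did so in some libraries only (Piwil1, Tdrd6, Hormad2 and Spo11), and Meiob had 1 count in all. Hormad1, which marks unpaired chromosome axes, and Syce3, a central element protein of the synaptonemal complex, had no count in any library, which allows a level of up to 0.0784 CPM in each. Every germ granule and piRNA gene had at least 1 count, against 15 of the 17 meiotic chromosome genes, Meiob included. The floor of 3 counts was reached in every library by 15 of 17 germ granule genes and 12 of 17 meiotic chromosome genes. The germ cell helicase gene Ddx4 and the RNA-binding protein gene Dazl were detected in all 6 libraries, as were the oocyte genes Gdf9 and Zp3. A level of at least 1 CPM in wild type was reached by 10 of 17 germ granule genes and by 4 of 17 meiotic chromosome genes. For 27 genes the counts sufficed for a test. The 9 others were Piwil1, Tdrd6, Syce1, Syce3, Hormad1, Hormad2, Spo11, Meiob and Ccnb3.

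Most of the signal came from a few genes. Tdrd5, Tdrd7 and Mlh3 together took 68.5 to 82.9% of the members' counts in a library. Levels were compared between genes per kilobase of merged exons (GENCODE M21). On this scale Tdrd5, a Tudor domain scaffold, had a wild-type mean of 13.9 CPM per kb, with 18.5, 17.7 and 5.51 in the 3 libraries. Tdrd7, another Tudor domain protein, which is also made outside the germ line, was at 7.97 (6.60 to 9.87), within the range of Tdrd5 and above it in wild-type replicate 3. The central element gene Syce2 was at 4.57 (3.76 to 5.66), below Tdrd7 in range. The next 3 genes, Mlh3 (3.67), Rec8 (3.65) and Mos (3.53), overlapped with each other and with Syce2, with 3.26 to 4.26, 3.07 to 3.97 and 2.94 to 4.18 CPM per kb over the wild-type libraries. Ddx4 was at 0.918 CPM per kb. The median gene of the germ granule group was at 0.517 CPM per kb in wild type and that of the meiotic chromosome group at 0.129.

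**Figure D1:**
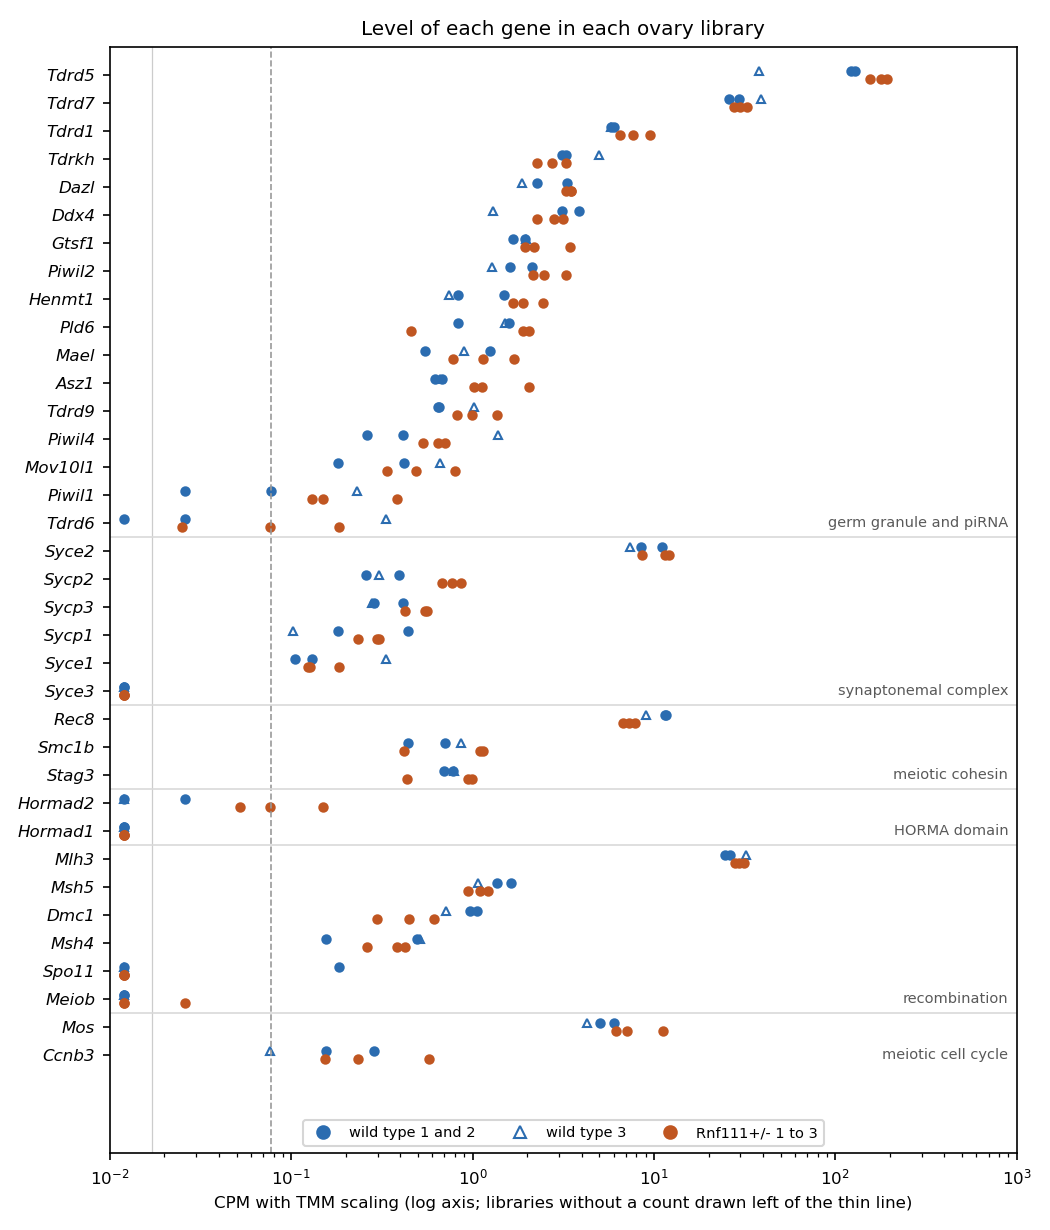
Level of each of the 36 genes in each library, in CPM with TMM scaling on a log axis, grouped by role. Blue circles are wild-type replicates 1 and 2, open triangles wild-type replicate 3 and orange circles the 3 Rnf111+/- libraries. The dashed line is the floor of 3 counts, and points left of the thin line had no count. Tdrd5 has the most counts in every library except wild-type replicate 3, where Tdrd7 has more, and Hormad1 and Syce3 lie at 0 in all 6 libraries.

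Promoters were looked at for shared letters. The RefSeq promoter table (build GRCm38.p6, an earlier build than the GRCm39 named for the counts) held 41 promoters of 31 of the 36 genes, leaving out Tdrd6, Piwil2, Spo11, Meiob and Mos. In the 250 bases before the start, the E-box CACGTG, a palindrome bound by MGA and MAX, was found in 34.1% of the members' promoters and in 6.02% of all 32851 promoters of that length. It was present in 38.1% of germ granule promoters and 31.6% of meiotic chromosome promoters. The site TCCCGC, searched on both strands and of the kind that E2F6 binds, was in 29.3% of members' promoters against 16.9% of all, with 14.3% for germ granule and 47.4% for meiotic chromosome promoters. MGA and E2F6 belong to a repressor complex known to keep germ line genes silent in other cells. Members' promoters were also richer in G and C (median 60.4 against 52.4%), and among promoters of at least 50% GC the share with CACGTG was 40% for members and 7.83% for all. For TCCCGC the corresponding shares were 34.3 and 26.7%. The motifs TAATTG (9.76 against 7.17%), CANNTG (75.6 against 66.2%, which includes every CACGTG) and TGACGTCA (0 of 41 against 1.55%) were also searched on both strands. Promoters often overlap within a gene, a match is not a site of binding, and the shares were not tested.

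The windows printed here are the 250 bases before the start of 6 genes, 5′ to 3′ on the gene's strand, with CACGTG and TCCCGC (or its reverse complement GCGGGA) in capitals. Mael, Sycp3 and Hormad1 are shown as examples of the 5 genes with a promoter that holds both motifs (the others are Ddx4 and Syce2), with Hormad1 the gene without a count. Tdrd5 is shown for its high level, and Dmc1 and Rec8 as the 2 genes lower in every heterozygous library. They lie at chr1:166238745-166238994 (minus strand) for Mael, chr10:88459337-88459586 (plus) for Sycp3, chr3:95559427-95559676 (plus) for Hormad1, chr1:156303349-156303598 (minus) for Tdrd5, chr15:79605110-79605359 (minus) for Dmc1 and chr14:55617916-55618165 (plus) for Rec8, all in GRCm38.p6.
Mael: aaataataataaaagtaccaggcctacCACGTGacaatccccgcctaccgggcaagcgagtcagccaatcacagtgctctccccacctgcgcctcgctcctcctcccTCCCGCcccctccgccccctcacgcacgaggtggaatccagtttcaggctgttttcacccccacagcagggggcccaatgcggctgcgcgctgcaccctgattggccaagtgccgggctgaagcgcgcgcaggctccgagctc
Sycp3: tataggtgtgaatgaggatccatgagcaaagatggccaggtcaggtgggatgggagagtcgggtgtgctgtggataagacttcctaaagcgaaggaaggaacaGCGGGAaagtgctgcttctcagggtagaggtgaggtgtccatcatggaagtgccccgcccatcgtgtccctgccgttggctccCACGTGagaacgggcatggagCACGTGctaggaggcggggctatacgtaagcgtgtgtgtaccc
Hormad1: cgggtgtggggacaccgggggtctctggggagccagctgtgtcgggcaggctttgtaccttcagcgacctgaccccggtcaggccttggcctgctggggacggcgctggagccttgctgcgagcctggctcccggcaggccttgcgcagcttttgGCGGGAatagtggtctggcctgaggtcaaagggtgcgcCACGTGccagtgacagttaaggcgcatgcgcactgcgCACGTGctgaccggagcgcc
Tdrd5: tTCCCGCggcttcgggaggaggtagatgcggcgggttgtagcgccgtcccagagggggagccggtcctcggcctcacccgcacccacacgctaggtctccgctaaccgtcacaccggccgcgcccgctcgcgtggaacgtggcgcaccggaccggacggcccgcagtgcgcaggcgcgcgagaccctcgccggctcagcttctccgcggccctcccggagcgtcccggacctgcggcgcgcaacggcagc
Dmc1: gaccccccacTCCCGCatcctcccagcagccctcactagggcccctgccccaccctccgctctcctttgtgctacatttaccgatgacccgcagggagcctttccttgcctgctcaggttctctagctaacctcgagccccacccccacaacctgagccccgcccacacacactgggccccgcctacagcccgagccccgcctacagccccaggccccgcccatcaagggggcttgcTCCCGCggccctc
Rec8: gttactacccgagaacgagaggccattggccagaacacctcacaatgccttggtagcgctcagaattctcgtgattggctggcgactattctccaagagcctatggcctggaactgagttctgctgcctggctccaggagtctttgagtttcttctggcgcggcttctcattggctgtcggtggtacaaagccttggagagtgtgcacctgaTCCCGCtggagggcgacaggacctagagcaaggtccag

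Between the genotypes, none of the 27 tested members passed edgeR's quasi-likelihood test with Benjamini-Hochberg adjustment over all 16841 tested genes. The count was 0 rises, where 3.9% of all tested genes rose, and 0 falls, where 5.74% fell (9.64% in either direction). At an unadjusted p under 0.05 there were 7 of 27 members (Tdrd1, Asz1, Henmt1, Sycp2, Rec8, Dmc1 and Mos), against 25.5% of all tested genes. DESeq2 called 1 of 34 members, Rec8, which fell, in a fit where 4.37% of all genes rose and 5.46% fell. With limma-voom 0 of 27 members were called (7 at an unadjusted p under 0.05), where 4.13% of all genes rose and 5.33% fell. For 10 of the 27 the 2 genotypes had separate ranges (32% of all tested genes). In 8 the heterozygous ovaries were higher and in 2 lower, against 15.1 and 16.9% of all tested genes. Without wild-type replicate 3, Tdrd5 rose and Rec8 fell among 28 tested members, in a fit where 7.37% of all tested genes rose and 8.82% fell. A result that misses the threshold does not show equal levels, and in whole ovary more cells of a type cannot be told apart from more RNA per cell.

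**Figure D2:**
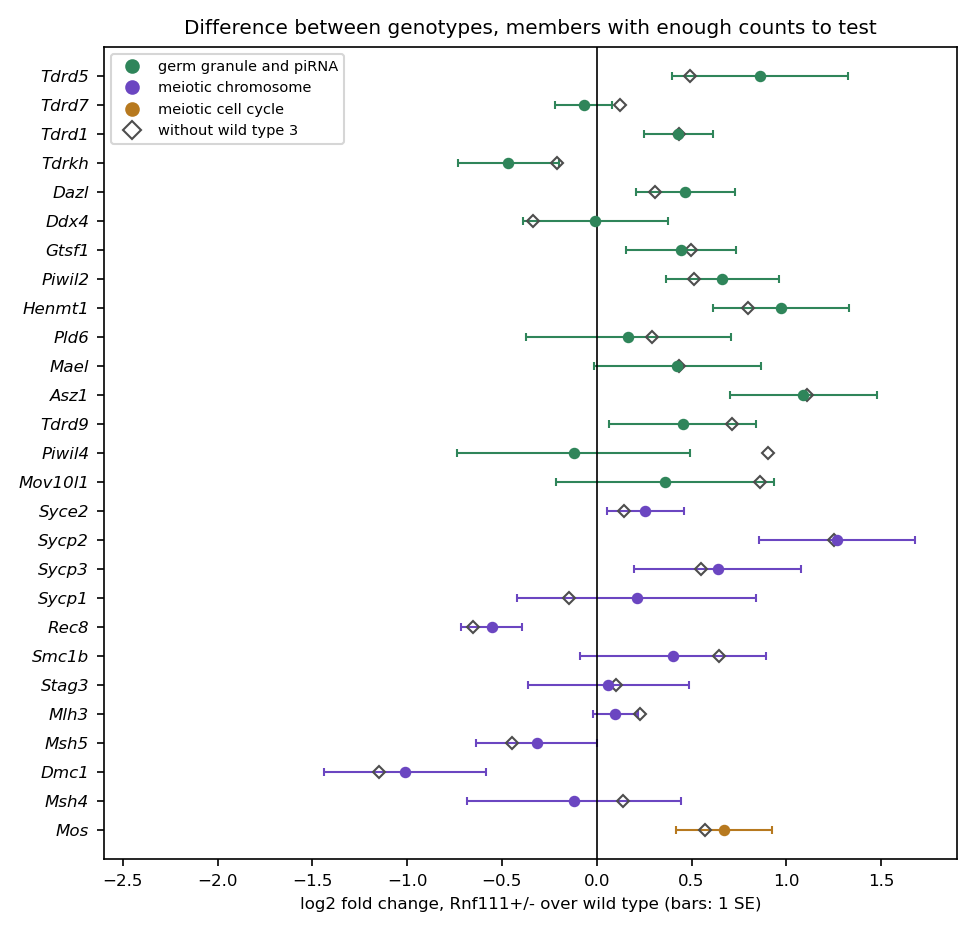
Log2 fold change of the 27 tested genes, Rnf111+/- over wild type, from edgeR, with bars of 1 SE and colours by group. Open diamonds give the value without wild-type replicate 3, where Tdrd5 (0.49) and Rec8 (-0.65) passed. With all 6 libraries the values run from -1.01 (Dmc1) to 1.27 (Sycp2).

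Among the PIWI genes, Piwil2, which encodes MILI, was at 2.14, 1.61 and 1.28 CPM in wild-type and 2.49, 3.29 and 2.17 CPM in heterozygous libraries. The groups did not overlap, by a narrow margin (log2 0.66 ± 0.30, SE, adjusted p = 0.208). Piwil4, which encodes the nuclear MIWI2, was at 0.261, 0.414 and 1.378 CPM in wild type, with the outlying value in replicate 3, and at 0.647, 0.536 and 0.705 CPM in heterozygotes. Its log2 difference was -0.12 ± 0.61 with all libraries and 0.90 ± 0.55 without that one, and neither passed (adjusted p = 0.928 and 0.309). Piwil1, which encodes MIWI, had 1, 3 and 9 counts in wild type and 6, 15 and 5 in heterozygotes, too few for a test.

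Levels of the Tudor domain genes ranged widely. Tdrd5 was at 128, 123 and 38.2 CPM in wild type and 156, 178 and 192 CPM in heterozygotes. All heterozygous libraries lay above all wild-type ones, and wild-type replicate 3 was 3.29-fold below the mean of the other 2 wild-type libraries. Over the same 3 wild-type libraries granulosa markers summed to 5176, 4769 and 2405 CPM, and 20 oocyte markers to 381, 339 and 348 CPM. Which cells the Tdrd5 reads came from was not tested. The difference in Tdrd5 between genotypes did not pass with all libraries (log2 0.86 ± 0.46, adjusted p = 0.326). Without replicate 3 Tdrd5 rose by 0.49 ± 0.09 on the log2 scale (adjusted p = 0.00335). Tdrd1, a scaffold that binds MILI, was at 6.02, 5.80 and 5.79 CPM in wild type and 9.54, 7.68 and 6.53 CPM in heterozygotes, without overlap (log2 0.43 ± 0.18, adjusted p = 0.181). Tdrd7 was at 31.6 ± 6.71 CPM in wild type and 30.1 ± 2.54 CPM in heterozygotes (SD, n = 3 each). Its difference lay between -0.37 and 0.23 at 2 SE on either side. Tdrd9, a helicase with a Tudor domain, was at 0.773 ± 0.214 against 1.06 ± 0.282 CPM. Tdrd6 had 25 counts in all, 52% of them in wild-type replicate 3.

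Tdrkh, a Tudor domain protein anchored to mitochondria that takes part in trimming piRNAs, had the lowest log2 fold change of the germ granule group (log2 -0.47 ± 0.27, adjusted p = 0.319). It was at 3.13, 3.29 and 5.0 CPM in wild type and 3.26, 2.73 and 2.27 CPM in heterozygotes, and the groups overlapped. Its exons share 2255 bases with Oaz3 on the opposite strand, and no source used here states whether counting used strand, so its reads are uncertain. The same holds, over fewer shared bases, for Sycp3, Henmt1, Tdrd5, Piwil4 and Msh4.

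Among genes of piRNA processing, Asz1 and Henmt1 were higher in every heterozygous library and did not pass the test. Asz1, which encodes an ankyrin repeat protein of germ granules, was at 0.678, 0.622 and 0.664 CPM in wild type and 2.04, 1.12 and 1.02 CPM in heterozygotes. The wild-type libraries were close together, heterozygous replicate 1 was the highest, and the groups did not overlap (log2 1.09 ± 0.39, adjusted p = 0.12). Henmt1, the methyltransferase that protects the ends of piRNAs, was at 1.49, 0.829 and 0.740 CPM against 2.44, 1.89 and 1.67 CPM, again without overlap (log2 0.97 ± 0.36, adjusted p = 0.133). Pld6, which encodes a mitochondrial nuclease that cuts piRNA precursors, ranged from 0.460 to 2.04 CPM within the heterozygous group alone, a range that held all 3 wild-type values. Mov10l1, the helicase that feeds precursors to it, was at 0.421 ± 0.241 CPM in wild type and 0.540 ± 0.234 CPM in heterozygotes.

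Of the remaining germ granule genes, Ddx4 was at 3.89, 3.11 and 1.30 CPM in wild type and 2.81, 3.17 and 2.27 CPM in heterozygotes. Its log2 difference was -0.01 ± 0.38 (2 SE on either side, -0.77 to 0.75), and its sign changed with the scaling. Dazl was at 3.31, 2.25 and 1.86 CPM in wild type and 3.49, 3.50 and 3.29 CPM in heterozygotes, where the lowest heterozygous library was just under the highest wild-type one (log2 0.47 ± 0.26, adjusted p = 0.312). Both genes had their lowest value in wild-type replicate 3. Mael, a factor of transposon silencing, was at 0.896 ± 0.354 against 1.20 ± 0.454 CPM, and Gtsf1, a zinc finger cofactor of PIWI proteins, at 1.86 ± 0.165 against 2.53 ± 0.793 CPM (SD, n = 3 each). Both overlapped between genotypes.

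In the synaptonemal complex, the 4 tested genes had values above 0 and none passed. Without wild-type replicate 3 that of Sycp1 was -0.14 ± 0.66. Sycp2, a protein of the chromosome axis, had 15, 10 and 12 counts in wild type and 31, 34 and 26 in heterozygotes, or 0.319 ± 0.0670 against 0.773 ± 0.0946 CPM. Its groups did not overlap, and its log2 fold change of 1.27 ± 0.41 (adjusted p = 0.0925) was the highest of the members. Sycp3, its axis partner, had 11, 16 and 11 counts against 17, 22 and 21 (log2 0.64 ± 0.44, adjusted p = 0.417). It shares 660 exon bases with Chpt1 on the opposite strand. Sycp1, the transverse filament that zips the axes together, was at 17, 7 and 4 counts in wild type and 12, 12 and 9 in heterozygotes. Syce2, unlike these, was abundant, at 11.1, 8.47 and 7.40 CPM against 12.1, 11.5 and 8.59 CPM, with overlap (log2 0.26 ± 0.20, adjusted p = 0.48). Syce1 had 39 counts in all, 33.3% of them in wild-type replicate 3.

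The log2 fold changes of the 3 meiotic cohesin genes did not share a sign, but those of Smc1b (0.40 ± 0.49) and Stag3 were smaller than their SE. Rec8, the cleavable kleisin that holds sister chromatids together until anaphase, was at 11.7, 11.4 and 9.01 CPM in wild type and 7.82, 7.28 and 6.76 CPM in heterozygotes. The highest heterozygous library was under the lowest wild-type one, and the level was 68.0% of wild type (log2 -0.56 ± 0.16, adjusted p = 0.0638). It passed with DESeq2 (adjusted p = 0.0183) and without wild-type replicate 3 (log2 -0.65 ± 0.15, adjusted p = 0.0143), and did not pass in the other 11 alternatives (0.065 to 0.205). Smc1b, the meiotic partner of SMC3, was at 0.704, 0.440 and 0.868 CPM against 1.15, 1.10 and 0.418 CPM, so its heterozygous libraries spanned the wild-type range. Stag3, the subunit that binds REC8, was at 0.758 ± 0.0506 and 0.791 ± 0.310 CPM (log2 0.06 ± 0.42).

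**Figure D3:**
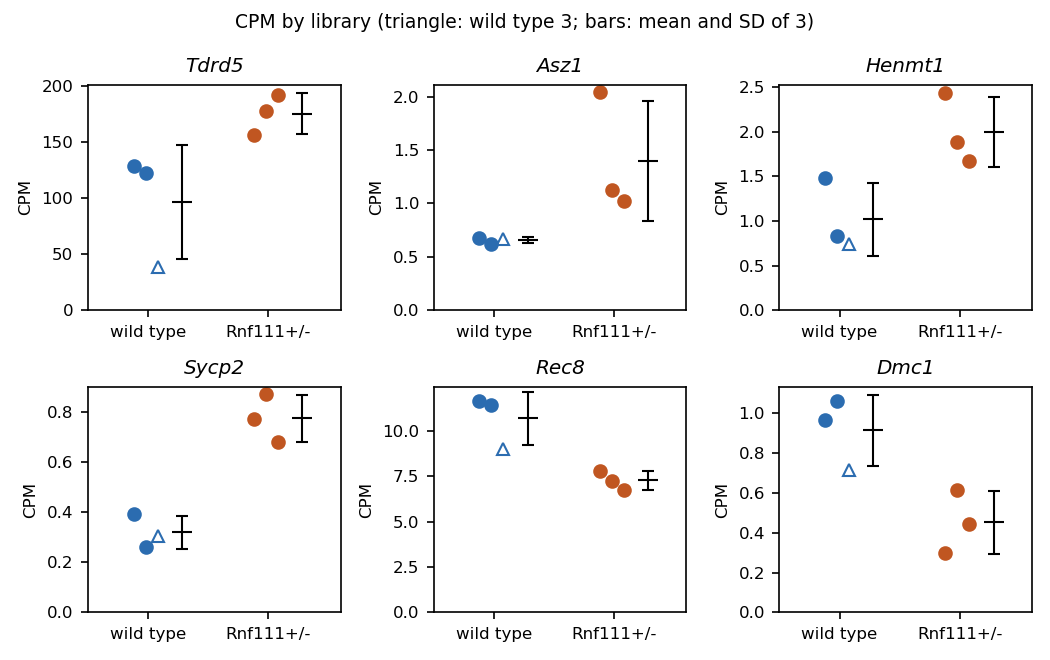
CPM of 6 genes by library, with the mean and SD of 3 libraries beside each group and axes from 0. Triangles mark wild-type replicate 3. Tdrd5, Asz1, Henmt1 and Sycp2 are higher in all heterozygous libraries, Rec8 and Dmc1 are lower, and none passed the test with all 6 libraries.

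Among recombination genes, Dmc1, the meiotic strand exchange protein, had 37, 41 and 28 counts in wild type and 12, 24 and 17 in heterozygotes. No heterozygous library reached the lowest wild-type one, and the level was 49.4% of wild type (log2 -1.01 ± 0.43, adjusted p = 0.18). Msh5 and Msh4, which form the pair that stabilises crossover intermediates, were at 1.35 ± 0.28 against 1.09 ± 0.14 CPM and at 0.387 ± 0.201 against 0.356 ± 0.0844 CPM, with overlap for both. Mlh3, a nuclease subunit of crossover formation that also serves mismatch repair in other cells, was at 27.7 ± 3.95 against 29.7 ± 1.77 CPM, and its log2 difference lay between -0.14 and 0.33 at 2 SE on either side. Spo11, which makes the DNA breaks that start recombination, had 7 counts in wild-type replicate 1 and none in the other 5 libraries. Hormad2, a chromosome axis gene, had 0, 1 and 0 counts in wild type and 6, 3 and 2 in heterozygotes. The ratio of summed Hormad2 counts was 3.44 on the log2 scale, with an exact binomial interval of 0.66 to 8.87 that covers counting error only. Neither gene passed in the fit without a filter (adjusted p = 0.346 for Spo11 and 0.347 for Hormad2, edgeR).

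Mos, the kinase that holds the egg at metaphase of the second division, was at 6.05, 5.03 and 4.26 CPM in wild type and 11.2, 7.10 and 6.19 CPM in heterozygotes. The lowest heterozygous library was just above the highest wild-type one (log2 0.67 ± 0.25, adjusted p = 0.139). Ccnb3, a cyclin needed to leave the first division, had 11, 6 and 3 counts against 23, 6 and 9.

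Set side by side, germ granule and piRNA genes had 11 of 15 tested values above 0 and a median log2 fold change of 0.43, and meiotic chromosome genes had 7 of 11 above 0 and a median of 0.10. All tested genes had 48.7% above 0 and a median of -0.01. The sum of the germ granule genes did not overlap between genotypes, at 102 to 181 CPM in wild type and 219 to 251 CPM in heterozygotes, and Tdrd5 alone gave 38.2 to 192 CPM of it. Without Tdrd5 all members, of every group together, summed to 106 to 122 CPM in wild type and 117 to 129 CPM in heterozygotes, with overlap. The sum of the germ granule group alone without Tdrd5 was not computed, so its separation is not shown apart from that gene. Meiotic chromosome genes summed to 49.5 to 54.8 CPM and 51.6 to 53.9 CPM. Within that group the synaptonemal complex genes had a median of 0.45 over 4 tested, cohesin 0.06 over 3 and recombination genes -0.22 over 4. The median of germ granule genes was above 0 under every alternative run, and that of meiotic chromosome genes was above 0 except with a stricter filter on low counts, which kept 4 of its genes (-0.09). Only genes with enough counts enter these medians, and the difference between the groups was not tested.

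**Figure D4:**
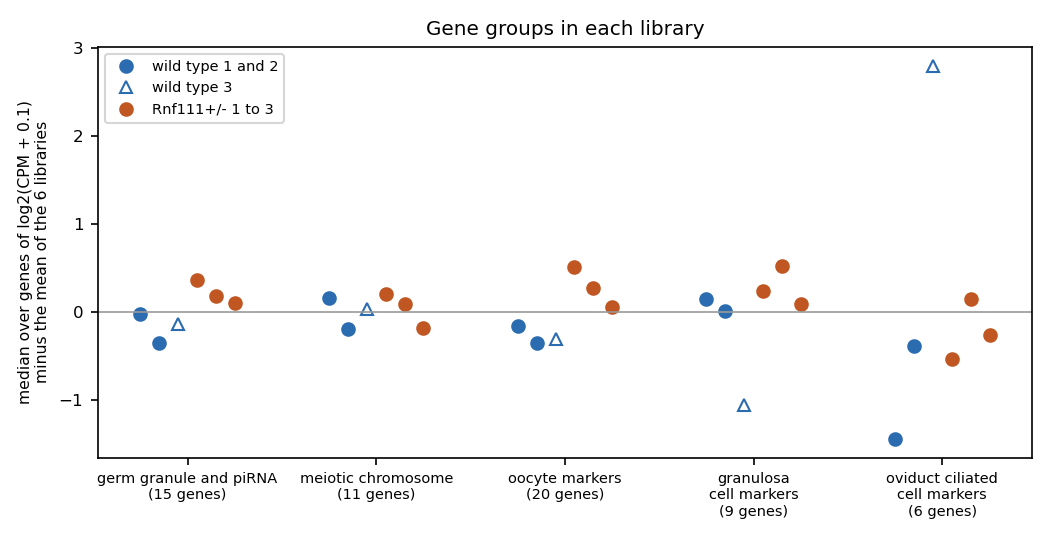
Each point is 1 library and gives the median, over the tested genes of a group, of log2(CPM + 0.1) minus that gene's mean over the 6 libraries. The 3 heterozygous libraries lie above the wild-type libraries for germ granule genes (0.10 to 0.36 against -0.35 to -0.03) and oocyte markers (0.06 to 0.51 against -0.35 to -0.16) and overlap for meiotic chromosome genes. Wild-type replicate 3 (triangle) is lowest for granulosa markers (-1.05) and highest for oviduct markers (2.80).

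The members' values were then set against 20 oocyte markers, none of which is a member. Of these, 10 rose and none fell, with a median log2 fold change of 0.62 (14 rose with DESeq2, and 1 to 10 with a library left out, 1 without heterozygous replicate 2). Gdf9, an oocyte growth factor, was at 46.9, 47.1 and 48.9 CPM in wild type and 84.5, 71.0 and 66.1 CPM in heterozygotes (log2 0.63 ± 0.10, adjusted p = 0.00707). The egg coat gene Zp1 rose by 0.81 ± 0.14 (adjusted p = 0.0118), the oocyte lattice gene Padi6 by 0.65 ± 0.13 (adjusted p = 0.0174) and the secreted protein gene Oosp1 by 0.67 ± 0.14 (adjusted p = 0.0226). Zp3, another egg coat gene, was at 20.6 ± 3.58 against 33.2 ± 6.94 CPM (0.69 ± 0.18, adjusted p = 0.0508). The summed marker level was 339 to 381 CPM in wild type and 450 to 606 CPM in heterozygotes. Expressed per 1000 CPM of these markers, 20 of the 27 tested members were lower in heterozygotes. The median log2 ratio was -0.16 for germ granule genes and -0.45 for meiotic chromosome genes. Because this base was itself higher in every heterozygous library, a gene at equal CPM in both genotypes comes out lower on this scale. Tdrd7 was at -0.62 and Mlh3 at -0.45 on it, against -0.07 and 0.10 in the fit. The share of all tested genes that come out lower was not computed. On this scale Rec8 was at 30.6, 33.8 and 25.9 in wild type and 12.9, 13.5 and 15.01 in heterozygotes. Dmc1, Msh5, Tdrkh and Tdrd1 were likewise lower in every heterozygous library, and Asz1 and Sycp2 were higher in every one. In CPM, before division by the base, Tdrd1 was higher in every heterozygous library, and Msh5 and Tdrkh overlapped. How many of all tested genes have separate ranges on this scale was not computed. On the marker scale Tdrd5 was at 337, 362 and 110 in wild type and 257, 331 and 426 in heterozygotes, with overlap. Mos was at 14.3 against 15.1, with overlap. These ratios are descriptions and depend on the markers taken as the base.

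Other genes of the pathways were read from lists that hold no member. Of 22 further germ granule and piRNA genes, 18 were tested and none passed in edgeR (1 at an unadjusted p under 0.05, Ddx25, log2 1.44 ± 0.48), with 16 of 18 values above 0 and a median of 0.39. DESeq2 called 1, Tex15, a partner of MIWI2 in transposon silencing, at 39.9 ± 12.5 against 64.6 ± 18.9 CPM (edgeR log2 0.69 ± 0.30, adjusted p = 0.219), and limma-voom called none (3 at an unadjusted p under 0.05). Of 32 further meiotic chromosome genes in the table, 17 were tested and none passed in edgeR, DESeq2 or limma-voom (0 at an unadjusted p under 0.05 in edgeR), with a median of 0.15. The 9 subunits and regulators of cohesin that all cells use had no call in edgeR with the filter on low counts (1 at an unadjusted p under 0.05) and a median of 0.02. DESeq2, and edgeR with no filter, called 1 of them as higher, the cohesin release factor gene Wapl (with the filter, log2 0.28 ± 0.09, adjusted p = 0.0737). The 16 genes of general recombination and mismatch repair had none in any of the 3 tools (1 at an unadjusted p under 0.05) and a median of -0.01. Of 11 genes that store messenger RNA in oocytes 2 rose, Zar1 (0.78 ± 0.14, adjusted p = 0.0119) and the oocyte cap-binding protein gene Eif4e1b (0.70 ± 0.15, adjusted p = 0.0258), and all 11 had values above 0 (5 rose with DESeq2). Zar1 passed with any 1 library left out, and the call of Eif4e1b was lost without wild-type replicate 2 or any 1 heterozygous library. Of 21 genes of the oocyte's meiotic cell cycle, Btg4, which drives removal of maternal messenger RNA, rose by 0.72 ± 0.17 (adjusted p = 0.033) and the kinase gene Mapk3, which acts downstream of Mos, fell by 0.25 on the log2 scale (adjusted p = 0.0413). Both calls were lost with any library but wild-type replicate 3 left out, and that of Mapk3 also with upper-quartile scaling and with no filter on low counts. The median of that list was 0.09.

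Calls in the lists of somatic cells changed without wild-type replicate 3. Among 9 granulosa markers the aromatase gene Cyp19a1 rose (log2 2.35 ± 0.39, adjusted p = 0.0188), a call that was lost without that library, as it was without wild-type replicate 1 or 2 or heterozygous replicate 2 and with no filter on low counts. Without wild-type replicate 3, Fshr, the receptor for follicle-stimulating hormone, and Inhba, an activin subunit, rose instead, and both also passed with DESeq2 and limma-voom. Amh was at 377 ± 99.9 against 382 ± 149 CPM (adjusted p = 0.981). Among 10 luteal markers the directions were mixed. Parm1, Star and Hsd3b1 fell (-2.22 ± 0.16, -0.84 ± 0.12 and -0.53 ± 0.10), with Hsd3b1 lost without wild-type replicate 1 or 2 or heterozygous replicate 2. Akr1c18, Sfrp4 and Ptgfr had higher values in all heterozygous libraries and did not pass (3.13 ± 1.06, 2.56 ± 0.71 and 1.79 ± 0.84). The first 2 of these rose with DESeq2 and limma-voom, and all 3 rose without wild-type replicate 3. With DESeq2, Prlr fell as well. Of 6 macrophage markers none passed in edgeR (1 at an unadjusted p under 0.05). Without wild-type replicate 3, C1qa, C1qb and Cd68 rose, and with DESeq2 Mrc1 fell.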

How the data were processed

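Whole-ovary RNA (TRIzol) was made into libraries with the VAHTS Universal V6 kit, per the labels' protocols. The authors deposited 1 table of raw counts per gene symbol for the 6 libraries. The submitters' processing notes name fastp (0.20.1), HISAT2 (2.1.0), HTSeq (0.11.2), DESeq2 (1.38.3) and GRCm39. No source used here gives their roles, the annotation or the strand setting. The counts were fitted in edgeR (4.0.16, R 4.3.3) with filterByExpr, TMM scaling and a robust quasi-likelihood test on genotype, on the whole table, with adjusted p under 0.05 called. SE is the absolute log2 fold change over the square root of F. CPM are computed from the deposited counts with TMM factors of 0.98 to 1.018. DESeq2 (1.42.0) and limma-voom (limma 3.58.1) were alternatives, with 2 other scalings, 2 other filters, a replicate block and each library left out. The members, gene lists and motifs were chosen with earlier results of these data known. All members are named, and of other lists up to 4 called genes, Gdf9, Zp3 and Amh. Genes called under an alternative or singled out (Ddx25, Tex15, Wapl, Fshr, Inhba, Akr1c18, Sfrp4, Ptgfr, Prlr, C1qa, C1qb, Cd68, Mrc1, Cfap43, Tekt1, Ovgp1, Dynlrb2) were chosen after their values were seen. Of 8 lymphocyte markers none passed in any tool (0 at an unadjusted p under 0.05 in edgeR). Of 6 tested oviduct markers none passed in edgeR (0 at an unadjusted p under 0.05), while Cfap43 fell in DESeq2 and Tekt1 rose without wild-type replicate 3. No 2 libraries were alike within sampling noise, chi-square over degrees of freedom being 12.4 for the closest pair. Floors cover counting error only. Each library is named for its own mouse, so the tests set the genotype difference against variation between these animals. That variation is estimated with information shared over genes.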

Additional observations from a re-analysis of the deposited data

How the results depend on the processing

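With 3 mice a group and 9 of 36 members under the filter, depth limits what can be said of the low genes, such as Sycp2 with 10 to 34 counts a library. Counts of members that rose and fell were 0 and 0 under every alternative except DESeq2 (1 fell, Rec8) and single libraries left out (0 to 1 rose and 0 to 1 fell, both reached without wild-type replicate 3). Over all tested genes 1623 of 16841 passed, 2543 of 25886 with DESeq2 and 530 to 2795 with a library left out. The median of germ granule genes ran from 0.23 (without heterozygous replicate 1) to 0.56 with a library left out, and that of meiotic chromosome genes from 0.03 to 0.15, and it was -0.094 with a stricter filter. Some members near 0 changed sign without passing. With DESeq2's size factors in edgeR, upper-quartile scaling, a stricter filter and DESeq2, Ddx4 was at 0.0016, 0.024, 0.0083 and 0.0016. With limma-voom Ddx4 was at 0.13, Piwil4 at 0.22, Pld6 at -0.046, Stag3 at -0.028 and Msh4 at 0.028. With a library left out Ddx4 ran from -0.34 to 0.33, Piwil4 from -0.50 to 0.90, Tdrd7 from -0.18 to 0.12, Mov10l1 from -0.030 to 0.86, Pld6 from -0.14 to 0.60, Sycp1 from -0.14 to 0.98, Stag3 from -0.13 to 0.36 and Msh4 from -0.49 to 0.14. The cause was not tested. The genotypes share replicate numbers, and the deviations of same-numbered libraries had low correlations (0.014, 0.0095 and 0.11). The last value, for replicate 3, was the highest of all pairs between the genotypes. Replicates 1 and 2 of both genotypes correlated best with a library of another number. With the replicate number as a block, 0 members rose, 0 fell, 1626 genes passed over all, Ddx4 was at 0.10, Piwil4 at 0.17 and Stag3 at -0.0075. Under the block Wapl rose and the calls of Btg4 and Mapk3 were lost.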
